A study of Homo sapiens with 9 samples.

Results

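The Sprouty and SPRED genes encode feedback inhibitors of receptor tyrosine kinase signalling, and their RNA was described here in 3 clones of the established human melanoma line SK-MEL-5, whose BRAF gene is mutated. The members were the rows of the deposited gene count table whose Ensembl IDs map to SPRY1, SPRY2, SPRY3, SPRY4, SPRED1, SPRED2 or SPRED3. All 7 had a row among the 60675 genes of the table, and all 7 were among the 18009 genes that passed the filter on low counts. The groups were the untreated subclones SC10, SC07 and SC01, each grown from a single cell of the parental line by limiting dilution without drug, with 3 RNA sequencing libraries per clone. All groups share the BRAF mutation of the line, and none had received a drug when the RNA was taken. The labels state that the choice of clones rested on their early response to a BRAF inhibitor, PLX-4720, without giving the response of any of them. Each group is 1 clone, so a difference between groups is a difference between these clones. Whether a clone's 3 libraries are separate cultures is not stated, so p-values reflect only how far these libraries scatter, possibly for technical reasons alone. Clone and culture batch cannot be told apart, nor can fewer cells of a type and less RNA per cell.

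Growth factor receptors signal through RAS, the RAF kinases, MEK and ERK, and active ERK switches on genes that damp the same route. The Sprouty genes belong to that set. Sprouty proteins are recruited to the membrane after receptor stimulation and act on steps between the receptor and RAF. SPRED proteins share the cysteine-rich Sprouty domain, and SPRED1 carries neurofibromin, the NF1 product that turns RAS off, to the membrane. Loss of SPRED1 is known in human melanoma and, in the germ line, in Legius syndrome.

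The promoter sequences of the members the results turn on are shown first: SPRY1, with the largest differences between clones, SPRED1, with the largest in the other direction, and SPRY2, the most abundant per length. Sequences are from RefSeq on GRCh38.p14, 250 bases before the annotated start, written 5′ to 3′ on the gene's strand. Capitals mark matches, on either strand, to an ETS motif (CCGGAA), a GC box (GGGCGG) or an M-box (CATGTG, a motif bound by MITF). The first SPRY1 start is preceded by chr4:123396545-123396794 (plus strand) and the second by chr4:123398136-123398385 (plus strand). The first SPRY2 start is preceded by chr13:80341127-80341376 (minus strand) and the SPRED1 start by chr15:38252586-38252835 (plus strand). Other SPRY2 starts are not shown. These RefSeq starts need not be the ends of the GENCODE genes given with the values.
SPRY1, first start: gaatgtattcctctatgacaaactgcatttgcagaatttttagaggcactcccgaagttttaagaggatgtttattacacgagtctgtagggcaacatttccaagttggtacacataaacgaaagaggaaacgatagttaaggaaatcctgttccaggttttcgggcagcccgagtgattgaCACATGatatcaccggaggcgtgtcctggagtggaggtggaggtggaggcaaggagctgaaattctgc
SPRY1, second start: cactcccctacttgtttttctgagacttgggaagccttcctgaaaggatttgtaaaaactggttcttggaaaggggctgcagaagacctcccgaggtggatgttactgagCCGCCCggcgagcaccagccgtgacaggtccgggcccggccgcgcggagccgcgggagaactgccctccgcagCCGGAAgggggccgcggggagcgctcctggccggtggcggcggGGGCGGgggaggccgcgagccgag
SPRY2: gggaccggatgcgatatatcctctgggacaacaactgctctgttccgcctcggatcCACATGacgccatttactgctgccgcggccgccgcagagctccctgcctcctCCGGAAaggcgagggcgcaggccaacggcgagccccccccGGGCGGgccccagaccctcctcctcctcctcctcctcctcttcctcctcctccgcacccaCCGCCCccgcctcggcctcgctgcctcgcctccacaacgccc
SPRED1: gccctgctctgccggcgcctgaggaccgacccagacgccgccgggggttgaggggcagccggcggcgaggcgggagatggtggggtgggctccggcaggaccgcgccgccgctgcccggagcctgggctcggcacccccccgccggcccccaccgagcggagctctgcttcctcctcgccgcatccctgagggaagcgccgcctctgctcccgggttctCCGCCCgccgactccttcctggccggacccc

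GC made up 45.6% of the window before the first SPRY1 start and 68.0% of that before the second. It made up 70.4% of the SPRY2 window and 78.4% of the SPRED1 window. The SPRY1 windows differed in motifs: the first held an M-box and neither of the others, and the second held an ETS motif and 2 GC boxes. The SPRY2 window shown held all 3 motifs. The other SPRY2 windows searched held no motif or a GC box only. The SPRED1 window held 1 GC box only. The search covered 13 windows of the 7 members and all 35116 windows in the RefSeq promoter table, each running from 250 bases before to 50 after a start. In those, 17.2% held the ETS motif, 45.0% a GC box and 11.1% an M-box, so the GC box is common everywhere. The cAMP response element (TGACGTCA) was in 1.85% of all windows and the E-box (CACGTG) in 7.26%, and neither was in a member window. AP-1 (TGANTCA, in 7.71% of all windows) was found in windows of SPRED2 and SPRED3, and a TATA motif (TATAAA, in 11.5%) in one of SPRED2. GC boxes were also in windows of SPRY4, SPRED2 and SPRED3. No motif searched was in a SPRY3 window. No match shown overlapped another. A match is a description of these letters and not a binding site, and no binding was measured.

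Levels are CPM (TMM-scaled share of a library's counts). Libraries held between 30224066 and 39454087 counts. SC10 replicate 3 stood apart from the other SC10 libraries, the chi-square of its counts over genes, divided by its degrees of freedom, being 10.6 and 11.7, against 2.56 between those, and it was the lowest SC10 library for all 7 members. Without it, no member call changed, and SPRY1 gave 0.36 and 1.92, and SPRED1 -0.39 and -0.94, in SC10 against SC07 and SC10 against SC01. The CBL log2 change in SC10 against SC07 was 0.46 with it and 0.60 without. Mitochondrially encoded genes held 10.5% to 11.0% of the counts in SC10, 9.52% to 9.99% in SC07 and 6.89% to 7.02% in SC01. The 7 melanocyte markers summed to 15153 to 15372 CPM in SC10, 24353 to 24855 in SC07 and 10724 to 11382 in SC01. Of them 6 had counts, and SOX10 was at 0 in all libraries. Whether SOX10 RNA was absent or its reads were not assigned to it was not tested. PMEL and DCT made up most of that sum, while TYRP1 averaged 702 CPM in SC10, 1212 in SC07 and 2394 in SC01, and MITF 550, 499 and 450 CPM in those clones. The list of 5 fibroblast markers, nearly all LUM, was at 335 to 371, 427 to 489 and 131 to 137 CPM in those clones. Keratinocyte markers, nearly all KRT10 with KRT1 at 0, summed to 23.3 to 27.2, 22.2 to 22.3 and 21.6 to 24.1 CPM, endothelial ones, nearly all VWF, to 4.78 to 5.37, 8.43 to 10.3 and 2.84 to 3.10 CPM, and immune ones to 0.738 to 1.31, 3.16 to 3.74 and 0.210 to 0.604 CPM in SC10, SC07 and SC01. Their part in the members' values was not tested.

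Values per library follow the replicate numbers, and log2 changes are from edgeR's quasi-likelihood fit with standard errors. Adjusted p-values are Benjamini-Hochberg values over all 18009 genes tested. In the 3 clones together 76.3% of all genes tested passed an adjusted p of 0.05, and 6 of the 7 members did. Between pairs of clones, 47.9% of all genes passed in SC10 against SC07, 65.9% in SC10 against SC01 and 62.0% in SC07 against SC01. Of the members, 4, 5 and 6 passed in those comparisons. In SC10 against SC07, 2 members were higher and 2 lower, where 24.8% of all genes were higher and 23.0% lower. In SC10 against SC01, 4 members were higher and 1 lower, where 33.5% and 32.4% of all genes were. In SC07 against SC01, 4 members were higher and 2 lower, where 31.5% and 30.5% of all genes were. The same 4, 5 and 6 members were those whose libraries did not overlap between the 2 clones, which held for 53.4%, 69.1% and 67.4% of all genes tested in the 3 comparisons. With shares this high over all genes, the number of members that passed does not set the family apart, and the sizes and directions below carry the description.

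Median log2 changes of the 7 members were 0.11 for SC10 against SC07, 0.20 for SC10 against SC01 and 0.23 for SC07 against SC01. Those of all genes were -0.01 in each. Each member median is the value of a single gene, SPRED3, SPRY3 and SPRY2 in that order. SPRED3 and SPRY3 had few counts and did not pass there (adjusted p = 0.641 and 0.398 in edgeR's quasi-likelihood test). The median absolute log2 change of all genes was 0.26, 0.43 and 0.39 in those comparisons. With only library totals as the scale, the median of all genes lay at -0.12 in both comparisons with SC01, so small differences there are read against that shift. In SC07 against SC01 that scale called 4666 genes higher of 11507 called, against 5675 of 11162 with TMM.

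SPRY1, a Sprouty that inhibits signalling from growth factor receptors, was the member that differed most. The gene (ENSG00000164056) lies at 123396795 to 123403760 on the plus strand of chromosome 4 in GRCh38. It was at 88.0, 91.8 and 83.8 CPM in SC10, at 69.6, 69.0 and 73.2 CPM in SC07, and at 25.0, 23.6 and 23.1 CPM in SC01. No library overlapped those of another clone, and SC10 was highest and SC01 far lowest. SPRY1 was 3.67-fold higher in SC10 than in SC01 (log2 change 1.88 ± 0.05, adjusted p = 1.54e-21). In SC07 it was 2.95-fold higher than in SC01 (log2 change 1.56 ± 0.05, adjusted p = 1.00e-19). SC10 exceeded SC07 by less, with a log2 change of 0.32 ± 0.05 (adjusted p = 5.84e-06). Its absolute change exceeded that of 92.2% of all genes in SC10 against SC01, 90.2% in SC07 against SC01 and 56.9% in SC10 against SC07.

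**Figure D1:**
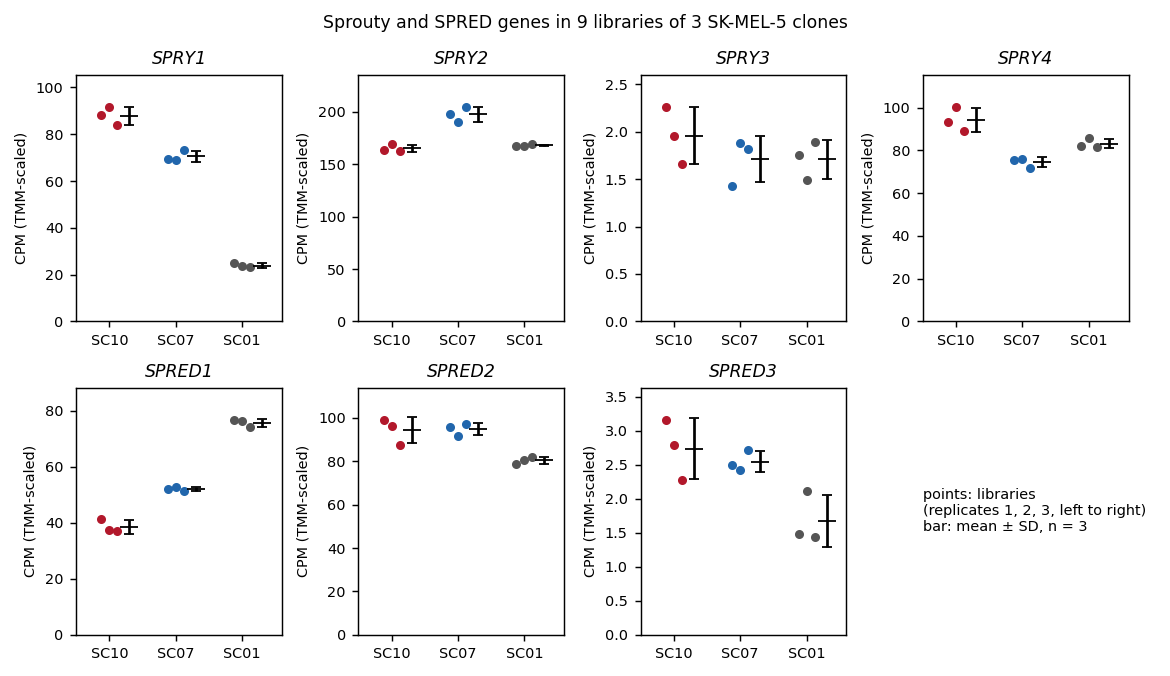
CPM of each of the 7 members in every library, by clone (SC10, SC07, SC01), with points for libraries and bars for the mean ± SD of 3 libraries. SPRY1 lies at 83.8 CPM or more in SC10 libraries and at 25.0 CPM or less in SC01 libraries, and SPRED1 runs the other way.

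SPRED1, the carrier of neurofibromin, ran in the opposite order. The gene (ENSG00000166068) lies at 38252326 to 38357249 on the plus strand of chromosome 15. It was at 41.3, 37.3 and 36.9 CPM in SC10, at 51.9, 52.6 and 51.3 CPM in SC07, and at 76.7, 76.5 and 74.1 CPM in SC01. SC10 libraries were lowest and SC01 libraries highest, with no overlap. SPRED1 was at 0.508 of its SC01 level in SC10 (log2 change -0.98 ± 0.05, adjusted p = 1.29e-15). In SC07 against SC01 the log2 change was -0.54 ± 0.05 (adjusted p = 2.54e-10), and in SC10 against SC07 it was -0.43 ± 0.05 (adjusted p = 8.56e-08). Of the members, SPRY1 and SPRED1 were the ones with an SC10 against SC01 change past 1.5-fold in a test against that size (adjusted p = 7.56e-19 and 2.89e-08), and SPRY1 alone passed it in SC07 against SC01 (adjusted p = 4.12e-16). Of all genes, 23.3% and 20.6% passed it in those comparisons. In SC10 against SC07 it was passed by 8.02% of all genes and by no member, and the unadjusted count of members was 0 as well.

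SPRY2, another general inhibitor of receptor signalling that binds the ubiquitin ligase CBL, was highest in SC07. The gene (ENSG00000136158) lies at 80335976 to 80340951 on the minus strand of chromosome 13. It was at 164, 169 and 163 CPM in SC10, at 198, 190 and 205 CPM in SC07 and at 168, 167 and 169 CPM in SC01. SC07 libraries all lay above those of the other clones, and SC10 and SC01 libraries overlapped. The log2 change was -0.26 ± 0.04 in SC10 against SC07 (adjusted p = 1.09e-05) and 0.23 ± 0.04 in SC07 against SC01 (adjusted p = 2.35e-05). In absolute size these exceeded the changes of 49.5% and 32.9% of all genes. SC10 and SC01 differed by -0.02 on the log2 scale, with a 95% interval of -0.11 to 0.06 (adjusted p = 0.638). With library totals as the scale, that difference was -0.14 and passed (adjusted p = 0.00440), and SC07 against SC01 was 0.13 (adjusted p = 0.00749).

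SPRY4, a Sprouty that ERK signalling induces, was highest in SC10 and lowest in SC07. The gene (ENSG00000187678) lies at 142310427 to 142326455 on the minus strand of chromosome 5, where the antisense gene SPRY4-AS1 overlaps it without sharing exon bases. Its values were 93.4, 100.4 and 89.3 CPM in SC10, 75.7, 76.0 and 72.0 CPM in SC07, and 82.3, 85.6 and 81.4 CPM in SC01. No library of one clone overlapped with those of another. The log2 change was 0.34 ± 0.05 in SC10 against SC07 (adjusted p = 1.82e-06), 0.18 ± 0.05 in SC10 against SC01 (adjusted p = 0.00182) and -0.16 ± 0.05 in SC07 against SC01 (adjusted p = 0.00772). With library totals as the scale, SC10 against SC01 was 0.07 and no longer passed (adjusted p = 0.197), and SC07 against SC01 was -0.26 (adjusted p = 5.41e-05).

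SPRED2, which acts on the RAS to RAF step, was lower in SC01 than in the other clones. The gene (ENSG00000198369) lies at 65310851 to 65432637 on the minus strand of chromosome 2. It was at 99.0, 96.3 and 87.5 CPM in SC10, at 95.8, 91.9 and 97.3 CPM in SC07 and at 78.7, 80.4 and 82.1 CPM in SC01. SC10 and SC07 libraries overlapped, and all lay above those of SC01. The log2 change was 0.23 ± 0.05 in SC10 against SC01 (adjusted p = 0.000187) and 0.24 ± 0.05 in SC07 against SC01 (adjusted p = 0.000124). With library totals as the scale these were 0.12 (adjusted p = 0.0307) and 0.13 (adjusted p = 0.0177). SC10 against SC07 gave -0.01, with an interval of -0.11 to 0.09 (adjusted p = 0.888).

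SPRED3, a less studied SPRED, was near the low end of the counts, with 723 counts in all 9 libraries. The gene (ENSG00000188766) lies at 38388421 to 38399587 on the plus strand of chromosome 19. It was at 3.16, 2.79 and 2.27 CPM in SC10, at 2.50, 2.42 and 2.72 CPM in SC07 and at 1.48, 2.12 and 1.44 CPM in SC01. The lowest SC10 library lay just above the highest SC01 library. The log2 change was 0.71 ± 0.19 in SC10 against SC01 (adjusted p = 0.00157) and 0.60 ± 0.19 in SC07 against SC01 (adjusted p = 0.00722). SC10 against SC07 gave 0.11, with an interval of -0.25 to 0.48 (adjusted p = 0.641).

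SPRY3, whose gene lies near the end of the X chromosome, did not pass in any comparison. The gene (ENSG00000168939) lies at 155767812 to 155782459 on the plus strand. It was at 2.26, 1.96 and 1.65 CPM in SC10, at 1.43, 1.88 and 1.82 CPM in SC07 and at 1.76, 1.49 and 1.89 CPM in SC01, with 560 counts in all. All 3 clones overlapped. The adjusted p was 0.563 over the clones together, and the 95% intervals of the log2 changes reached from -0.21 to 0.60 for SC10 against either other clone, and from -0.41 to 0.42 for SC07 against SC01 (adjusted p = 0.449 for SC10 against SC07, 0.398 for SC10 against SC01 and 0.991 for SC07 against SC01). No exon base of any member is shared with an exon of another GENCODE gene. GENCODE lists SPRY3 also in the pseudoautosomal region of Y, a copy left out of that check. How reads with several matches were counted is not stated.

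**Figure D2:**
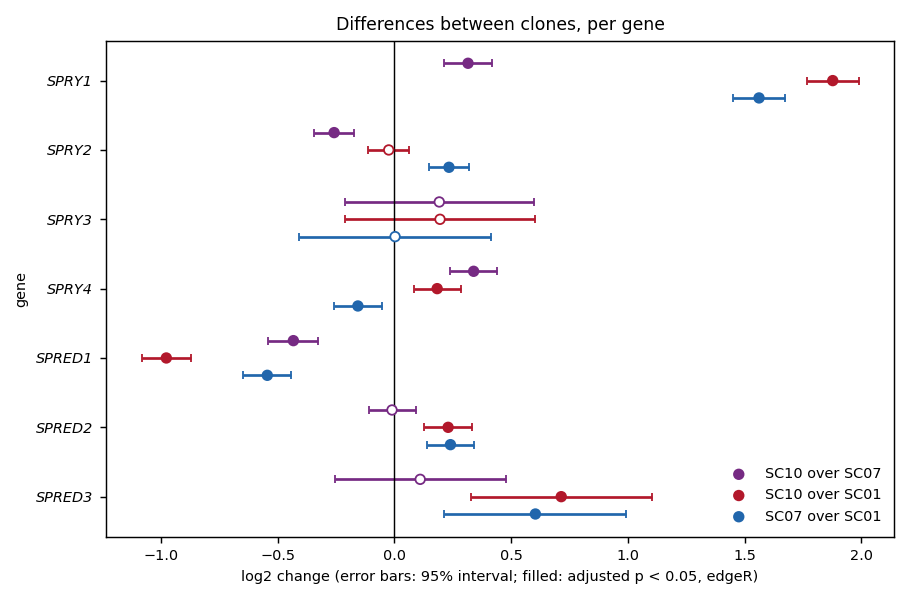
Log2 change of each member in the 3 comparisons (SC10 against SC07, SC10 against SC01, SC07 against SC01), with 95% intervals, and filled points where the adjusted p was under 0.05. SPRY1 reaches 1.88 and SPRED1 -0.98 in SC10 against SC01, while the SPRY3 intervals all cross 0.

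Levels of different members were compared per kilobase of merged GENCODE exons. SPRY2 was the most abundant in every clone, at 54.4 ± 1.1 CPM per kb in SC10, 65.0 ± 2.4 in SC07 and 55.3 ± 0.25 in SC01 (SD, n = 3 each). SPRY1 was next in SC10 at 22.2 ± 1.0 CPM per kb. In SC07 it was at 17.8 ± 0.58 CPM per kb, with libraries that overlapped those of SPRED2 (18.4 ± 0.55). In SC01 it was at 6.03 ± 0.24 CPM per kb, below SPRED2 (15.6 ± 0.33), SPRY4 (12.7 ± 0.34) and SPRED1 (9.17 ± 0.17). SPRED1 was at 4.66 ± 0.29 CPM per kb in SC10 and 6.29 ± 0.080 in SC07. SPRED3 and SPRY3 were the least abundant, between 0.190 and 0.467 CPM per kb in every clone. With the longest transcript as the length, chosen after seeing the data, SPRY1 and SPRED2 changed places in SC07 only.

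The summed level of the 7 members was 115 ± 3.8 CPM per kb in SC10, 120 ± 3.1 in SC07 and 99.2 ± 0.21 in SC01 (SD, n = 3 each). SPRY1 made up 19.3 ± 0.26% of it in SC10, 14.9 ± 0.20% in SC07 and 6.08 ± 0.25% in SC01. SPRED1 made up 4.07 ± 0.25% in SC10, 5.27 ± 0.20% in SC07 and 9.25 ± 0.17% in SC01. SPRY2 held 47.5 ± 0.95% in SC10, 54.4 ± 0.60% in SC07 and 55.7 ± 0.33% in SC01. The 4 Sprouty genes together made up 79.6 ± 0.88% in SC10, 79.0 ± 0.17% in SC07 and 74.7 ± 0.19% in SC01, and the 3 SPRED genes the rest. These shares sum to the whole, so a rise in 1 member's share lowers others, and no test was made on them. The summed level rests on TMM scaling and was not computed with library totals. On that scale the median log2 change of all genes lay at -0.12 in both comparisons with SC01.

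**Figure D3:**
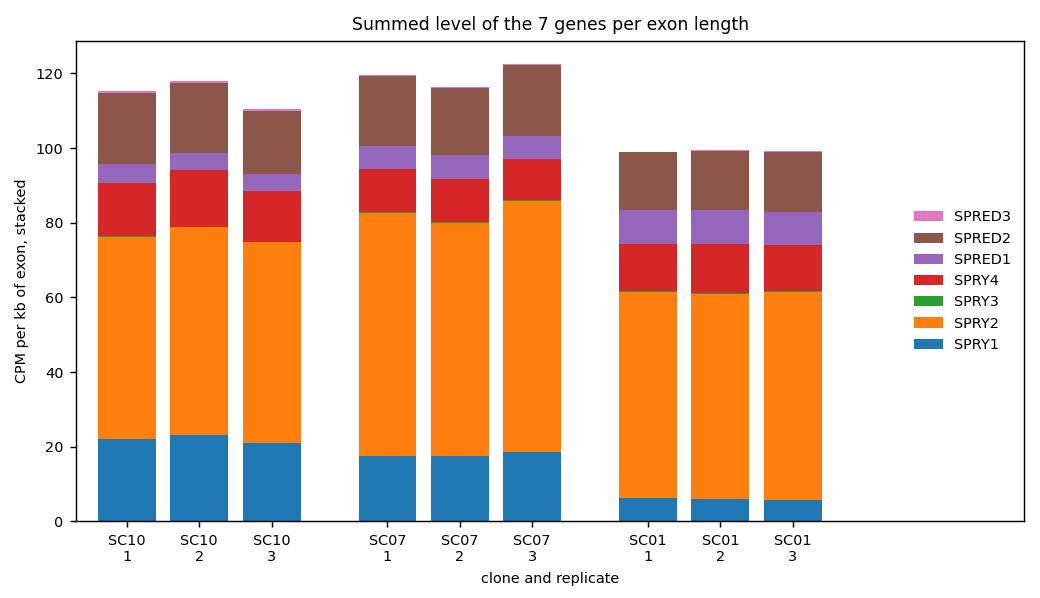
Stacked CPM per kb of the 7 members in each library, ordered SC10, SC07, SC01. The SPRY1 band is widest in SC10 and narrowest in SC01, the SPRED1 band the reverse, and SPRY2 makes up the largest band throughout.

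Genes that the members act with were examined as lists. The shares of all genes that passed, 47.9%, 65.9% and 62.0%, apply here too. Of 22 partners and regulators of Sprouty and SPRED proteins, 13 passed in SC10 against SC07 (4 higher, 9 lower, median log2 change -0.11). In SC10 against SC01, 15 passed (5 higher, 10 lower, median -0.10), and in SC07 against SC01 15 (7 higher, 8 lower, median -0.05). NF1, the neurofibromin that SPRED1 carries, was at 139 ± 24 CPM in SC10, 148 ± 2.6 in SC07 and 97.3 ± 2.9 in SC01 (SD, n = 3 each). It was higher than in SC01 both in SC10 (log2 change 0.51 ± 0.12, adjusted p = 0.00568) and in SC07 (0.61 ± 0.12, adjusted p = 0.00249), where SPRED1 was lower than in SC01. The SC10 libraries of NF1 were at 150, 155 and 111 CPM, and its SC10 against SC07 change was -0.10 with replicate 3 (adjusted p = 0.546) and 0.05 without. CBL, a ubiquitin ligase that Sprouty proteins bind, was at 94.0 ± 16 CPM in SC10, 68.6 ± 3.8 in SC07 and 43.7 ± 1.6 in SC01. Its relative CBLB was at 15.2 ± 1.0 CPM in SC10, 11.0 ± 0.68 in SC07 and 30.2 ± 1.2 in SC01. The CBL log2 change in SC10 against SC01 was 1.11 ± 0.12 (adjusted p = 6.95e-05) and that of CBLB -0.99 ± 0.07 (adjusted p = 1.29e-12). In SC10 against SC07 both were higher, by 0.46 each (adjusted p = 0.0143 for CBL and 1.45e-05 for CBLB). CAV1, a caveolin that binds Sprouty proteins, was at 53.0 ± 3.1 CPM in SC10, 30.9 ± 1.5 in SC07 and 190 ± 5.1 in SC01, and was lower in SC10 (log2 change -1.84 ± 0.05) and SC07 (-2.62 ± 0.05) than in SC01. PTPN11, the phosphatase SHP2, was at 182 ± 12 CPM in SC10, 233 ± 8.1 in SC07 and 306 ± 9.7 in SC01, the same order as SPRED1.

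Of 14 genes that ERK signalling induces, 12 passed in each comparison. SC10 against SC07 had 5 higher and 7 lower (median log2 change -0.15), and both comparisons with SC01 had 6 higher and 6 lower (medians -0.02 for SC10 and 0.09 for SC07). The genes did not all move together. DUSP6, an ERK phosphatase, was at 46.6 ± 0.98 CPM in SC10, 64.6 ± 0.43 in SC07 and 45.4 ± 2.6 in SC01. Like SPRY2, it passed in both comparisons with SC07 and not between SC10 and SC01 (adjusted p = 0.535). DUSP4, PHLDA1, ETV4, ETV5 and EPHA4 were also highest in SC07 and passed in both comparisons with it. CCND1, FOSL1, IER3 and EGR1 were lowest in SC07 and passed in both, and the rest of the list did neither. EPHA4, an ephrin receptor, was at 26.8 ± 2.0 CPM in SC10, 44.8 ± 1.4 in SC07 and 3.66 ± 0.52 in SC01. CCND1, cyclin D, was at 208 ± 6.0 CPM in SC10, 141 ± 2.2 in SC07 and 326 ± 8.4 in SC01. FOSL1, an AP-1 subunit, was at 23.9 ± 0.55 CPM in SC10, 16.7 ± 0.74 in SC07 and 50.5 ± 3.3 in SC01. IER3, an early response gene, was at 76.5 ± 2.7 CPM in SC10, 33.2 ± 0.93 in SC07 and 68.8 ± 2.5 in SC01. Its SC10 against SC01 call (log2 change 0.15, adjusted p = 0.00794) was lost with library totals (adjusted p = 0.480) and without SC01 replicate 3 (0.12, adjusted p = 0.0644). In SC10 against SC01 the log2 change was 2.87 ± 0.09 for EPHA4, -0.65 ± 0.04 for CCND1 and -1.08 ± 0.06 for FOSL1. DUSP6, IER3, PHLDA1 and CCND1 share 40.5%, 26.5%, 16.5% and 10.3% of their exon bases with another gene, and how reads there were assigned is not stated.

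Of 12 core genes of the route from RAS to ERK, 6 passed in SC10 against SC07 (4 higher, 2 lower, median 0.02), 10 in SC10 against SC01 (6 higher, 4 lower, median 0.05) and 9 in SC07 against SC01 (5 higher, 4 lower, median -0.01). BRAF was at 61.4 ± 6.3 CPM in SC10, 58.2 ± 3.3 in SC07 and 42.1 ± 3.0 in SC01, with log2 changes against SC01 of 0.54 in SC10 and 0.46 in SC07. SC10 against SC07 gave 0.08 (adjusted p = 0.364), and 0.17 without SC10 replicate 3, where it passed (adjusted p = 0.00882). KSR1, a RAF scaffold, was at 17.5 CPM in SC10, 16.0 in SC07 and 12.3 in SC01. It passed against SC01 in both SC10 (log2 change 0.51) and SC07 (0.39). Its SC10 against SC07 change of 0.13 (adjusted p = 0.203) passed only without SC10 replicate 3 (0.20, adjusted p = 0.0384).

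Of 11 other inhibitors of receptor and RAS signalling, 10 were tested and DOK2 had 1 count in all. Of those 10, 6 passed in SC10 against SC07 (3 higher, 3 lower), 8 in SC10 against SC01 (4 higher, 4 lower) and 7 in SC07 against SC01 (3 higher, 4 lower), with median log2 changes of -0.00, -0.01 and -0.13. ERRFI1, an inhibitor of the EGF receptor family, was at 9.95 ± 0.30 CPM in SC10, 15.6 ± 1.3 in SC07 and 21.6 ± 1.6 in SC01, the order of SPRED1. IL17RD, an inhibitor of FGF signalling, was at 9.65 ± 1.0 CPM in SC10, 8.74 ± 0.48 in SC07 and 14.4 ± 0.47 in SC01. IL17RD passed against SC01 in both SC10 (log2 change -0.57) and SC07 (-0.72). Without SC10 replicate 3 its SC10 against SC07 change of 0.14 (adjusted p = 0.211) was 0.24 and passed (adjusted p = 0.0412). PEBP1, a RAF inhibitor protein, was at 455 ± 19 CPM in SC10, 640 ± 18 in SC07 and 386 ± 9.6 in SC01, and its SC10 against SC01 change of 0.24 was 0.13 with library totals. DOK1, a docking protein, was at 10.8 ± 1.3 CPM in SC10, 4.48 ± 0.048 in SC07 and 11.9 ± 0.43 in SC01. DOK1 passed in SC10 against SC07 (log2 change 1.26) and in SC07 against SC01 (-1.41). Its SC10 against SC01 change of -0.14 (adjusted p = 0.180) passed without SC10 replicate 3 (-0.24, adjusted p = 0.0316) and with library totals.

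**Figure D4:**
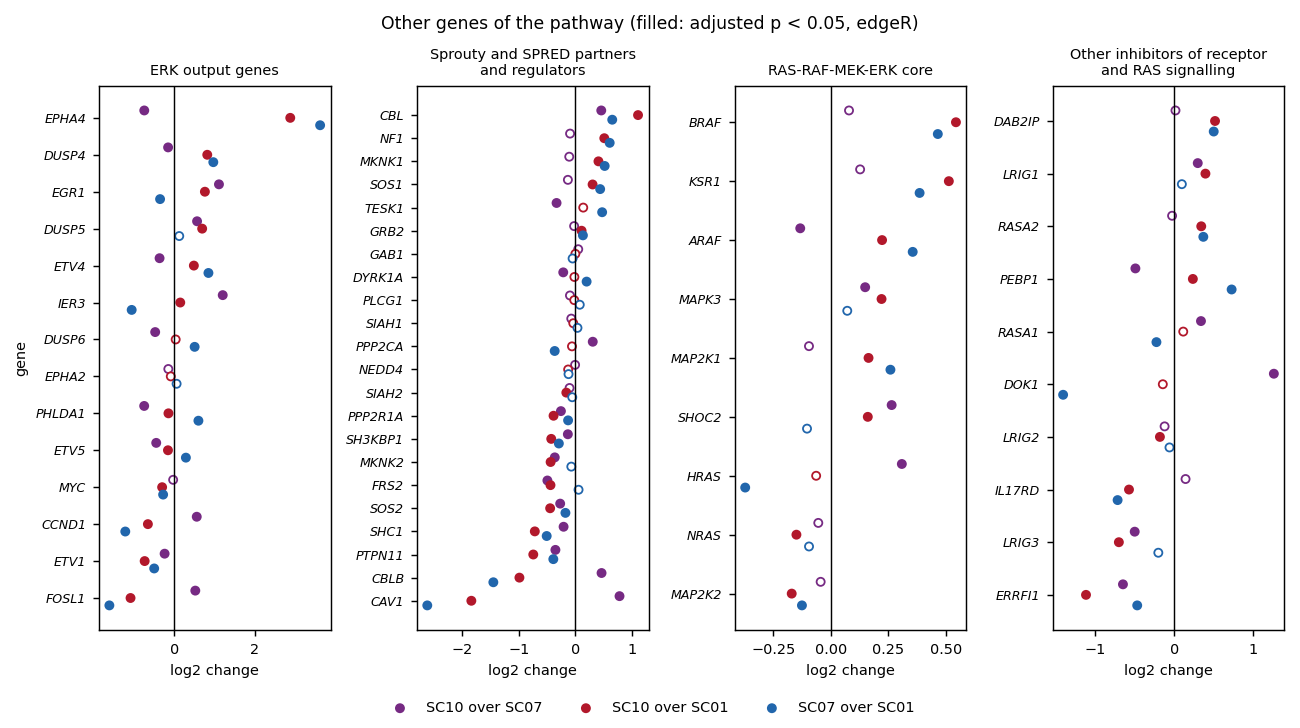
Log2 changes of genes of the 4 lists in the 3 comparisons, without a few genes of the core list that are not reported, 1 panel per list, with a point for each gene and comparison (filled where the adjusted p was under 0.05). Points lie on both sides of 0 in every list, with EPHA4 at 3.61 in SC07 against SC01 the highest.

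The members' neighbours on their chromosomes were set beside them, the 20 nearest tested genes on each side, added after seeing the data. SPRY3, at the end of X, had only 22 such genes, over 1.58 Mb. The 40 neighbours of SPRY1 spanned 20.6 Mb of chromosome 4, and 28 were higher and 5 lower in SC10 than in SC01 (median log2 change 0.46). In SC07 against SC01, 29 were higher and 2 lower (median 0.48), and in SC10 against SC07 the median was -0.09. The median of all tested genes of chromosome 4 was 0.32 in SC10 against SC01 and 0.38 in SC07 against SC01. SPRY1 lay above its neighbours' median, at 1.88 and 1.56. The neighbours of SPRED1 had medians of -0.07, -0.20 and -0.14 in SC10 against SC07, SC10 against SC01 and SC07 against SC01, and SPRED1 lay below each. The neighbours of SPRY4 had a median of 0.37 in SC10 against SC07, close to the 0.34 of SPRY4, of -0.04 in SC10 against SC01, where SPRY4 was at 0.18, and of -0.49 in SC07 against SC01, below its -0.16. The neighbours of SPRY2 had medians of -0.18, -0.02 and 0.14 in the 3 comparisons, beside -0.26, -0.02 and 0.23 for the gene. For SPRED2 the medians against SC01 were 0.24 in SC10 and 0.35 in SC07, beside 0.23 and 0.24 for the gene. For SPRED3 they were -0.21 and -0.09, against 0.71 and 0.60. Copy number was not measured here and its part in these values was not tested.

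**Figure D5:**
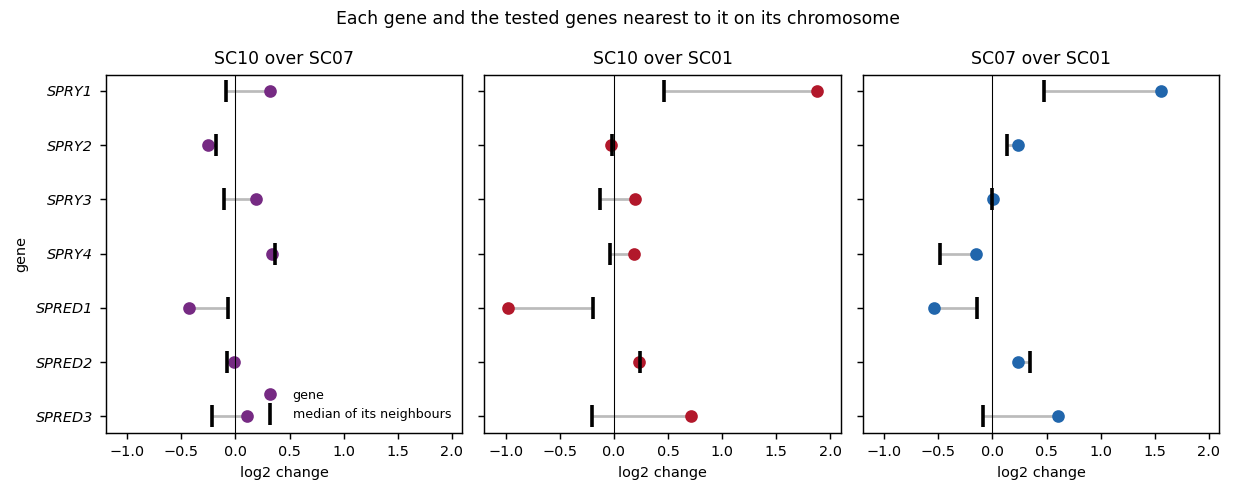
Log2 change of each member beside the median log2 change of its nearest tested neighbours (40 genes, 22 for SPRY3), by comparison. SPRY1 lies above its neighbours' median in SC10 and SC07 against SC01, and SPRED1 below its own.

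With TMM scaling SPRY1 was the one member whose clone means lay at least 2-fold apart (SPRED1 had 0.508 of its SC01 level in SC10, and a log2 change of -1.09 with library totals), so genes like it were looked for among 10445 protein-coding genes with a mean of at least 5 CPM. The measure was the root mean square difference of centred log2 CPM over 9 libraries. The closest were TRIM47 (0.0581), at 17.8 ± 0.73 CPM in SC10, 14.3 ± 0.74 in SC07 and 5.14 ± 0.36 in SC01, AIFM2 (0.0681), at 103 ± 3.0, 82.5 ± 3.8 and 29.6 ± 0.78 CPM in the same clones, and SPECC1 (0.0738), at 41.4 ± 2.3, 32.8 ± 2.2 and 11.2 ± 0.25 CPM. Another gene overlaps 51.5% of the exon bases of TRIM47. These are the best matches among 10445 genes over only 3 clones. Of all genes tested, 20.2% had an absolute log2 change over 1 in SC10 against SC01 and 18.6% in SC07 against SC01. Shared regulation with SPRY1 was not tested.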

How the data were processed

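Sequencing covered 9 libraries from 3 untreated clones (3 each). The authors deposited raw read counts of 60675 Ensembl genes. The submitters' processing notes name HISAT2, featureCounts and GRCh38, with no version, strand setting or rule for reads matching several places, all of which could change counts of overlapping or duplicated genes. Names, exons and positions came from GENCODE 29 (GRCh38; 57055 IDs matched), and promoter sequences from RefSeq on GRCh38.p14. Libraries were assigned to clones by their labels, and total counts ran from 30224066 to 39454087, at which 3 counts are 0.0760 to 0.0993 CPM, for counting error only. Replicate libraries were further apart than counting error alone gives (chi-square over degrees of freedom 2.56 to 11.7, highest with SC10 replicate 3). All 9 were kept as separate samples, though that spread does not show whether they are separate cultures.

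No count was found in any library for 24415 genes, 18251 more fell below edgeR's filterByExpr and 18009 were tested. One robust quasi-likelihood fit in edgeR 4.0.16 (R 4.3.3) took the 9 libraries after TMM scaling, with a Benjamini-Hochberg threshold of 0.05. Standard errors were taken from the log2 change and its F statistic. Alternatives were other scalings and filters, DESeq2 1.42.0, limma 3.58.1, a test against 1.5-fold, pairs alone, a non-robust fit, a replicate block and leaving out each library. The members and lists were chosen with earlier results of these data known. Named genes were all members, up to 4 genes per list (those passing the threshold with the largest changes), NF1, CBL, DUSP6 and BRAF, and the 3 genes most like SPRY1. A few genes that this rule takes are left out of the text and the figures, though the counts per list include them. Further ERK output genes were named after seeing the data, for their order over the clones.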

Additional observations from a re-analysis of the deposited data

How the results depend on the processing

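Over 399 alternative values of the members' log2 changes, 385 kept their side of the threshold, 13 lost their call and 1 gained one. The sign turned in 12, all of 2 differences near 0 that passed under no setting (SPRED2 in SC10 against SC07 and SPRY3 in SC07 against SC01), and in 0 of the called ones. Outside the test against 1.5-fold, the only calls that changed were SPRY4 in SC10 against SC01, which lost its call with library totals (0.07, adjusted p = 0.197), and SPRY2 in the same comparison, which gained one (-0.14, adjusted p = 0.00440). The SPRED3 call in SC07 against SC01 held with an adjusted p of up to 0.0483 over its alternatives other than that test. Against a minimum change of 1.5-fold, which 8.02%, 23.3% and 20.6% of all genes tested passed in SC10 against SC07, SC10 against SC01 and SC07 against SC01, with edgeR's glmTreat, 0 members passed in SC10 against SC07, 2 in SC10 against SC01 and 1 in SC07 against SC01. In the same comparisons 4, 4 and 6 ERK output genes, 1, 5 and 2 partners and regulators, 0, 0 and 0 core genes and 1, 1 and 2 other inhibitors passed. For the core genes and the members in SC10 against SC07 the count at an unadjusted p under 0.05 was also 0, and no other tool was run against that size. Leaving out each library in turn left 4, 5 and 6 members called, and 4 to 8 core genes in SC10 against SC07, beside 6 with all libraries. No strong pairing by library number was seen: same-numbered libraries correlated at -0.0195 to 0.0429 and 5 of 9 libraries correlated best with their own number. Whether a weak pairing exists was not tested. A replicate block gave 4, 5 and 6 members called, with 8754, 11926 and 11249 genes called against 8620, 11864 and 11162 without it. The test against 1.5-fold and the fits of single pairs gave no value for the 3 clones together. Counts of 560 for SPRY3 and 723 for SPRED3 limit what could be detected for them.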
